A study of Mus musculus with 21 samples.

Results

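MHC class I molecules carry peptides from the inside of a cell to its surface, where CD8 T cells read them. The genes described here are the 10 that build and supply this display, chosen by symbol from the 23420 symbols of the count table, and all 10 were present. They fall into 4 roles. H2-K1 and H2-D1 are the classical heavy chains, H2-T23 is the nonclassical heavy chain Qa-1b, and B2m is the light chain that assembles with each of these heavy chains. Tap1 and Tap2 form the peptide transporter of the endoplasmic reticulum, and Tapbp (tapasin) tethers empty class I molecules to it. Psmb8 and Psmb9 are catalytic subunits of the immunoproteasome, the interferon-inducible form of the protease that cuts the peptides. Nlrc5 is the transactivator that binds with the RFX, CREB and NF-Y factors at class I promoters and drives most of the other members.

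RNA was measured in 21 libraries of inflammatory monocytes (IMs), CD11b+ Ly6C-high myeloid cells that were enriched with a monocyte kit and sorted. Tumor-infiltrating monocytes (TIMs) came from 2 transplanted models of lung squamous cancer. LN2E1 (KAL-LN2-E1) cells, 500000 per mouse, were placed into the lung of FVB mice and gave primary tumors (n = 5) and lymph node metastases (n = 5), and LN4K1 cells, derived from the KLN-205 line, were given into a vein of DBA2 mice at 300000 per mouse and gave lung tumors (n = 5). IMs from the bone marrow of healthy FVB mice (n = 3) and healthy DBA2 mice (n = 3), here BM IMs, were the controls of the same strain. Each model was 1 cell line in 1 strain, so strain, cell line, route and tissue cannot be told apart between the models, and TIMs differed from BM IMs in tissue as well as in the tumor. The study calls its replicates technical, and the labels do not say that they were separate mice, so the p-values may measure technical spread only.

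Libraries held between 80772922 and 101043568 counts. The members took between 0.763% and 1.05% of the counts in FVB BM IMs, between 1.34% and 1.58% in primary tumor TIMs, between 1.75% and 1.89% in lymph node TIMs, between 0.947% and 0.970% in DBA2 BM IMs and between 1.35% and 1.54% in LN4K1 lung TIMs. The monocyte label was checked on 9 markers, and none of the 9 was at 0 in any of the 5 groups. The same held for the macrophage, neutrophil and dendritic cell markers below, so this check cannot tell monocytes from these cells. Ly6c2, the gene for the sorted surface marker, lay between 2455 and 3618 CPM (counts scaled to library size) in BM IMs of both strains and between 978 and 1676 CPM in TIMs. Not all monocyte markers fell. Ptprc lay between 617 and 742 CPM in BM IMs and between 1192 and 3027 CPM in TIMs. Ccr2 rose from at most 734 to at least 742 CPM in FVB mice and from at most 1376 to at least 2331 CPM in DBA2 mice. Csf1r and Itgam were higher without overlap in the LN2E1 TIMs only. Lyz2 was lower in the LN2E1 TIMs and higher in LN4K1 lung TIMs. Markers of other cells also moved. Summed CPM of 7 macrophage markers lay between 1293 and 2615 in BM IMs and between 3528 and 6932 in TIMs, and that of 8 neutrophil markers between 2897 and 5695 and between 298 and 1928. The sum of 7 T cell markers lay between 0.712 and 2.70 in BM IMs and between 6.94 and 96.3 in TIMs, and that of 8 NK cell markers between 27.1 and 40.6 and between 70.6 and 198. The sum of 7 fibroblast markers lay between 380 and 1132 CPM in primary tumor TIMs and at most at 107 CPM in any other library. The sum of 9 dendritic cell markers lay between 92.1 and 118 CPM in BM IMs and between 110 and 624 CPM in TIMs. That of 9 squamous epithelial markers lay between 0.935 and 2.81 CPM in BM IMs and between 1.27 and 140 CPM in TIMs, and Krt5 and Krt6a were at 0 in every LN4K1 lung library. The sum of 5 endothelial markers lay between 6.14 and 11.9 CPM in FVB BM IMs and between 59.1 and 128 CPM in the LN2E1 TIMs, and between 11.9 and 13.7 and between 5.72 and 18.2 CPM in the DBA2 groups. Those of B cells (6 markers), alveolar macrophages (6) and red blood cells (3) reached at most 35.7, 95.9 and 3.50 CPM in TIMs and 41.1, 119 and 6.51 CPM in BM IMs. Nearly all nucleated cells express class I genes, and the part of these other cells in the results below was not tested. In sorted bulk samples, more RNA of a gene per cell and more cells that carry it cannot be told apart.

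All members but 2 lie in the MHC on mouse chromosome 17 (GRCm38). H2-K1 spans chr17:33996017-34000347, Tapbp chr17:33915899-33929292, and H2-D1 chr17:35262730-35267499. Psmb9 (chr17:34181987-34187764), Tap1 (chr17:34187553-34197225), Psmb8 (chr17:34197721-34201454) and Tap2 (chr17:34203527-34216321) sit side by side, and H2-T23 lies at chr17:36029773-36032855. B2m is on chromosome 2 (chr2:122147686-122153083) and Nlrc5 on chromosome 8 (chr8:94434356-94527272). FVB mice carry the H2q and DBA2 mice the H2d haplotype, whereas the mm10 reference is H2b, so reads of H2 genes can be lost or moved in alignment to a different degree in each strain. A constant loss of this kind cancels between TIMs and BM IMs of one strain. Reads moved in from another gene need not cancel, because they bring the change of that gene with them. Neither cancels in a level set across strains, or across genes within a library. In the reference, 9.63% of the 50-base windows of H2-K1 transcripts, 12.8% of those of H2-D1 and 14.5% of those of H2-T23 also occur in another gene, mainly other class I genes, and none of those of B2m do. The libraries were not stranded, and Tapbp shares 29% of its exon bases with other genes, Tap2 18.5% and Psmb8 14.7%, mostly antisense transcripts, so these counts are uncertain to that extent.

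The promoters of H2-K1, H2-D1 and B2m are shown because they carry the elements through which class I genes are switched on together, and the stretch between Psmb9 and Tap1 because these neighbours are read from it in opposite directions. RefSeq start sites can differ from the gene ends given above. Each is RefSeq sequence of GRCm38.p6, from 200 bases before the start site up to it, with the motifs found in capitals, and the last is the whole stretch of 225 bases between the start sites, on the strand of Tap1. H2-K1 (chr17:34000334-34000533, minus strand), H2-D1 (chr17:35262894-35263093, plus strand), B2m (chr2:122147487-122147686, plus strand) and the Psmb9-Tap1 stretch (chr17:34187331-34187555, plus strand) read as follows.
H2-K1: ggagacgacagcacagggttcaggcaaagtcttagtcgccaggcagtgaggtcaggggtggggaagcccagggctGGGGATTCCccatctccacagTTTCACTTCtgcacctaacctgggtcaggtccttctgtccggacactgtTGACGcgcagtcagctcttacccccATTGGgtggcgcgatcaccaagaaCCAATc
H2-D1: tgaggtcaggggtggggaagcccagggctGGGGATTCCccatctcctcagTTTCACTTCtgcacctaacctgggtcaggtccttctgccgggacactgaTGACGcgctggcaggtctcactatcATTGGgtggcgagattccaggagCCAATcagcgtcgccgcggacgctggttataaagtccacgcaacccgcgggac
B2m: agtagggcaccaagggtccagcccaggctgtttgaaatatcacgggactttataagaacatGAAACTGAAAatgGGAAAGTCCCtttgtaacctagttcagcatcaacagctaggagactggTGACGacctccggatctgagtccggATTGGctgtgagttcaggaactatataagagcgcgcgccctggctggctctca
Psmb9-Tap1: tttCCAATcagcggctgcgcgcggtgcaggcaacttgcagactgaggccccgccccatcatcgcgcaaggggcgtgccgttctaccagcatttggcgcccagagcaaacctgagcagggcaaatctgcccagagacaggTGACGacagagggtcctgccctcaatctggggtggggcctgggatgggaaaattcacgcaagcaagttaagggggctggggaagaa

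The motifs were chosen with these sequences in view and were searched on both strands of the 300-base promoters that RefSeq gave for 8 members (Tap2 and Nlrc5 were not matched), counting a match anywhere in the window. The interferon element (GAA or GAAA, then NN, then GAAA) was found in H2-K1, H2-D1, H2-T23 and B2m and in 10.4% of 32851 mouse promoters. The kappaB site (GGG, then NN, then TTCC or TTTCC) was found in H2-K1, H2-D1 and B2m and in 7% of all promoters. TGACG, the core of the X2 box at which CREB-family factors bind beside RFX, was found in H2-K1, H2-D1, B2m, Tap1 and Psmb9 and in 20.8% of all. The match in Tap1 and that in Psmb9 are the same site, in the stretch between these genes. CCAAT, the NF-Y letters, was found in 7 members and in 37.4% of all, and Tap1 and Psmb9 again share the same site. In H2-K1 and H2-D1 the kappaB letters, the interferon element, TGACG and 2 CCAAT boxes follow each other in the same order. In B2m the interferon element comes before the kappaB letters. These are matches of letters and not bound sites.

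Transcript levels of the members were compared within a library per kilobase of exon. The length was that of all annotated exons of a gene merged, 3660 bases for Psmb9 and 3781 for Tap2. It can exceed the length of the transcripts present, to a different degree in each gene. B2m stood highest in all 5 groups, from 2219 ± 25.2 CPM per kilobase in DBA2 BM IMs to 5294 ± 1296 in lymph node TIMs (SD, n = 3 and n = 5). H2-D1 came next in the group means, followed by H2-K1. Reads of the heavy chains can be lost in alignment to a different degree in each gene. Alignment and expression therefore cannot be told apart in this order or in their place below B2m. In LN4K1 lung TIMs H2-D1 and H2-K1 overlapped, at 1461 ± 149 and 1365 ± 78.8 CPM per kilobase (n = 5). Nlrc5 stood lowest in all groups, from 0.754 ± 0.0944 CPM per kilobase in FVB BM IMs (n = 3) to 15.7 ± 4.87 in lymph node TIMs (n = 5). The middle of the order changed. Tap1 and Tap2 stood at 16.9 ± 2.04 and 38.7 ± 3.13 CPM per kilobase in FVB BM IMs, both below Psmb9 at 45.8 ± 10.7, although Tap2 and Psmb9 overlapped there. In primary tumor TIMs they stood at 110 ± 8.77 and 131 ± 11.3, both above Psmb9 at 73.4 ± 7.32, without overlap. The order of genes within a group holds for these merged exon lengths only.

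**Figure D1:**
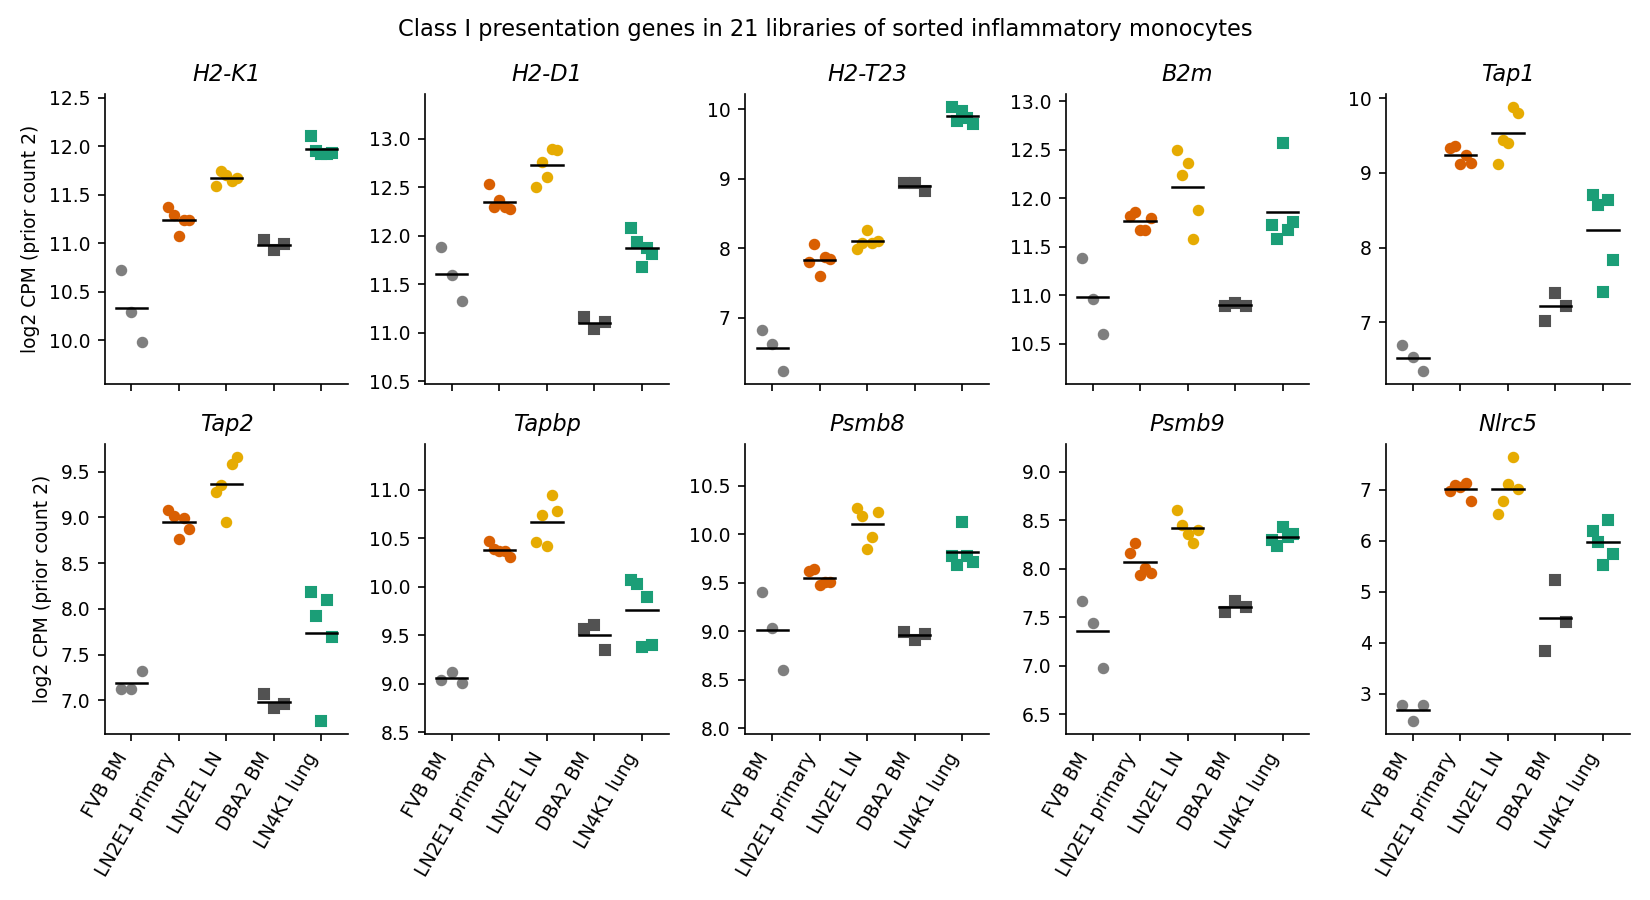
log2 CPM (prior count 2) of the 10 members in every library, 1 panel per gene with its own vertical scale. Points are libraries, circles for the FVB groups and squares for the DBA2 groups, and bars are group means; every TIM library of the LN2E1 model lies above every FVB BM IM library in each panel.

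The comparison of TIMs with BM IMs of the same strain asks what monocytes express once they are in a tumor. All 10 members were higher in primary tumor TIMs than in FVB BM IMs (edgeR quasi-likelihood test, Benjamini-Hochberg adjusted p under 0.05 over 14569 genes), where 33.3% of all genes tested were higher. At the study's threshold for a differentially expressed gene (DEG, a change of more than 1 on the log2 scale in either direction at an adjusted p under 0.0001), Nlrc5, Tap1, Tap2, Tapbp and H2-T23 passed, 5 of 10, all of them higher. Of all genes 12.9% were DEGs, and 7.72% were DEGs that were higher. The study set this threshold on DESeq2 results with shrunken fold changes, whereas the DEGs counted here come from edgeR. With shrunken DESeq2 values 5 members were DEGs in primary tumor TIMs as well. The median log2 fold change was 1.06 over the members and 0.080 over all genes. No member overlapped between the groups, whereas 30.6% of all genes were higher without overlap.

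Nlrc5 rose most. It was at 6.85, 5.48 and 6.88 CPM in the 3 FVB BM IM libraries and at 125, 136, 134, 140 and 110 CPM in the 5 primary tumor libraries. Its log2 fold change was 4.32 (SE 0.14, adjusted p = 8.4e-08 with edgeR), or 19.9-fold. The transporter followed. Tap1 was at 104, 92.8 and 81.3 CPM in BM IMs and at 646, 659, 554, 604 and 561 CPM in TIMs, a log2 fold change of 2.69 (SE 0.11, adjusted p = 1.6e-07 with edgeR). Tap2 was 3.34-fold higher (log2 fold change 1.74, SE 0.11) and Tapbp 2.48-fold (1.31, SE 0.078). For all of these genes the lowest TIM library lay well above the highest BM IM library.

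The heavy and light chains moved less. H2-T23 was at 113, 98.7 and 75.0 CPM in BM IMs and between 193 and 267 CPM in TIMs (log2 fold change 1.25, SE 0.14, adjusted p = 6.1e-05 with edgeR). H2-K1 rose 1.83-fold (log2 fold change 0.87, SE 0.15), H2-D1 1.65-fold (0.72, SE 0.12) and B2m 1.67-fold (0.74, SE 0.15). The immunoproteasome subunits had the smallest changes, with Psmb9 at 0.67 (SE 0.15) and Psmb8 at 0.50 (SE 0.15, adjusted p = 0.0163 with edgeR) on the log2 scale. Without FVB BM replicate 2, Psmb8 was at 0.51 and no longer passed (adjusted p = 0.0544).

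Gene length moved with this comparison. The median log2 fold change was 0.21 over 3555 genes with more than 5000 bases of exon and -0.60 over 540 genes with fewer than 1500, and B2m, with 860 bases, is the shortest member. With an offset for the length trend of each library, added after the data had been seen, B2m had a log2 fold change of 1.37 in place of 0.74, Nlrc5 4.07 and Tap1 2.57, and all 10 members still passed. What the length trend comes from was not tested.

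**Figure D2:**
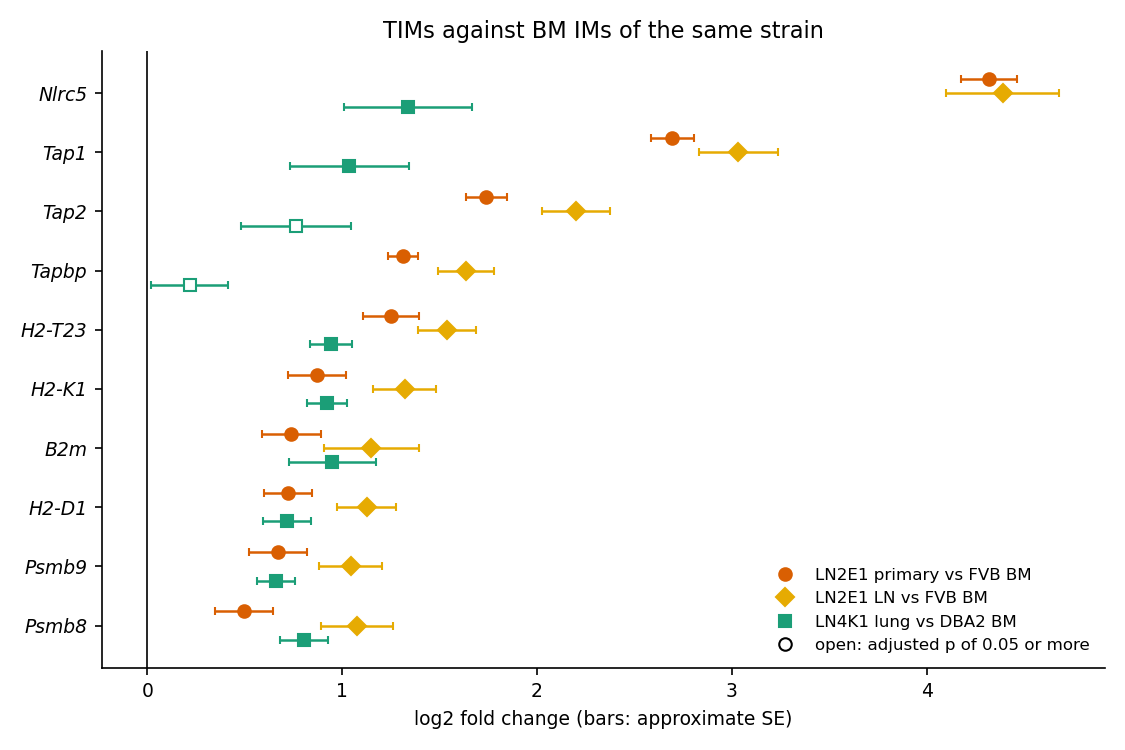
log2 fold changes of the 10 members in TIMs against BM IMs of the same strain, ordered by the primary tumor value, with bars of 1 approximate standard error. Filled symbols passed an adjusted p of 0.05; only Tap2 and Tapbp in LN4K1 lung TIMs did not, and Nlrc5 is at 4.32, 4.39 and 1.34.

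All 10 members were also higher in lymph node TIMs than in FVB BM IMs, where 20.2% of 13273 genes tested were higher, and none overlapped between the groups (19.7% of all genes were higher without overlap). This comparison shares its 3 control libraries with the one above, so the comparisons are not independent. The DEGs were Nlrc5, Tap1, Tap2, Tapbp and H2-T23, all higher, where 5.71% of all genes were DEGs and 4.01% were DEGs that were higher. The median log2 fold change was 1.43 over the members and -0.041 over all genes. The number of DEGs among the members depended on the setting, with 2 without FVB BM replicate 2, 3 without FVB BM replicate 1 or lymph node replicate 2 or 5, and 10 with DESeq2.

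Nlrc5 was at 91.3, 110, 138, 200 and 129 CPM in the lymph node libraries, a log2 fold change of 4.39 (SE 0.29, adjusted p = 3.1e-06 with edgeR). Tap1 was at 554, 695, 676, 945 and 896 CPM (3.03, SE 0.20) and Tap2 between 495 and 810 CPM (2.20, SE 0.17). Tapbp rose 3.11-fold and H2-T23 2.90-fold. H2-K1, at 3095, 3440, 3347, 3197 and 3274 CPM against 1698, 1251 and 1010 CPM in BM IMs, rose 2.50-fold with little spread between its TIM libraries.

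H2-D1 was 2.18-fold, B2m 2.22-fold, Psmb8 2.11-fold and Psmb9 2.06-fold higher than in BM IMs, with log2 fold changes between 1.04 and 1.15 and SEs between 0.15 and 0.24. B2m varied widely among the lymph node libraries, at 5793, 4854, 5274, 3061 and 3780 CPM. Library 4, lowest in B2m, was highest in Nlrc5, and library 1, highest in B2m, was lowest in Nlrc5.

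Both sites lie in the same strain, so the haplotype does not differ between them. In lymph node TIMs, 5 of 10 members were higher than in primary tumor TIMs and none lower, where 6.15% of 13488 genes tested were higher. Psmb8 rose by 0.57 on the log2 scale (SE 0.094, adjusted p = 0.00367 with edgeR), from 788, 803, 714, 728 and 731 CPM to 1242, 1167, 920, 1008 and 1205 CPM, without overlap. H2-K1 rose by 0.44 (SE 0.075, adjusted p = 0.00408 with edgeR) and Psmb9 by 0.36 (SE 0.092), also without overlap (5.52% of all genes were higher without overlap). H2-D1 (0.39, SE 0.097) and Tap2 (0.45, SE 0.13) passed with libraries that overlapped.

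Nlrc5, the transactivator, had a log2 difference of 0.063 (SE 0.18, adjusted p = 0.871 with edgeR) between the sites, and -0.13 without lymph node replicate 4. H2-T23, B2m, Tap1 and Tapbp had differences between 0.27 and 0.40 and did not pass. The call for Tap2 was lost without any 1 of 8 libraries, for Psmb9 without any 1 of 5 and for H2-D1 without any 1 of 3. The number of members called lay between 2 (without primary tumor replicate 4 or 5) and 7 (without lymph node replicate 1). Psmb8 and H2-K1 passed whichever library was left out. Summed T cell markers lay between 6.94 and 96.3 CPM in lymph node libraries and between 15.4 and 44.8 CPM in primary tumor libraries, and summed NK cell markers between 145 and 198 CPM and between 79.6 and 119 CPM. Their part in these differences was not tested.

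In the LN4K1 model 8 of 10 members were higher in TIMs than in DBA2 BM IMs, where 13.9% of 13624 genes tested were higher. No member was a DEG, against 2.97% of all genes in either direction. The median log2 fold change was 0.86 over the members and 0.029 over all genes. The 8 called members did not overlap between the groups, whereas 19.2% of all genes were higher without overlap.

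Nlrc5 was at 14.3, 37.4 and 21.2 CPM in DBA2 BM IMs and at 73.4, 63.1, 45.7, 84.8 and 53.2 CPM in TIMs. The groups did not overlap, and the log2 fold change was 1.34 (SE 0.33, adjusted p = 0.0161 with edgeR). H2-T23 was at 489, 490 and 451 CPM in BM IMs and at 1049, 909, 1006, 942 and 883 CPM in TIMs (0.94, SE 0.11, adjusted p = 2.0e-04 with edgeR). H2-K1 rose from 2097, 1959 and 2031 CPM to 4420, 3967, 3880, 3885 and 3898 CPM (0.92, SE 0.10). The libraries of both heavy chains lay close together within each group, except the first TIM library for H2-K1, which was higher.

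B2m rose 1.93-fold, Psmb8 1.75-fold, H2-D1 1.64-fold and Psmb9 1.58-fold. The loading complex was uneven. Tap1 was at 130, 168 and 149 CPM in BM IMs and at 415, 381, 170, 399 and 227 CPM in TIMs, a log2 fold change of 1.04 (SE 0.31, adjusted p = 0.0350 with edgeR). Tap2 was at 290, 242, 109, 274 and 206 CPM against 135, 121 and 125 CPM (0.76, SE 0.28, adjusted p = 0.0776 with edgeR), and Tapbp at 1076, 1044, 667, 955 and 676 CPM against 759, 778 and 652 CPM (0.22, SE 0.20, adjusted p = 0.471 with edgeR). TIM replicate 3 lay below the BM IM range for Tap2 and within it for Tapbp, and replicate 5 lay within it for Tapbp.

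LN4K1 lung replicate 3 stood apart. It was highest in B2m, at 6066 CPM against at most 3466 CPM in the other 4, and lowest in Tap1, Tap2, Tapbp, Nlrc5 and H2-D1. Its squamous epithelial markers summed to 1.27 CPM, against values between 62.7 and 119 CPM in the others. Without it 9 members passed, Tap2 among them (log2 fold change 0.94, adjusted p = 3.7e-04 with edgeR), and Tapbp had 0.31 (adjusted p = 0.171). With other libraries left out the count fell to 5 without DBA2 BM replicate 1 or 3, to 6 without DBA2 BM replicate 2 and to 7 without LN4K1 lung replicate 1, 2 or 4. The call for Tap1 was lost in all 6 of these cases (adjusted p from 0.0615 to 0.125). That for Nlrc5 was lost without DBA2 BM replicate 1 or 3 (adjusted p = 0.0533 and 0.0761 with edgeR). That for B2m was lost without any 1 of the 3 DBA2 BM libraries (adjusted p from 0.0512 to 0.0550 with edgeR). H2-K1, H2-D1, H2-T23, Psmb8 and Psmb9 passed whichever library was left out.

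The spread within groups moved with the length of the genes. In each library the median deviation from the group mean was taken over genes with more than 5000 bases of exon, less that over genes with fewer than 1500. It was largest in size in LN4K1 lung replicate 3 (-0.49 on the log2 scale), lymph node replicate 4 (0.46), lymph node replicate 1 (-0.45), FVB BM replicate 3 (0.30) and LN4K1 lung replicate 2 (0.30). B2m, the shortest member, deviated by 0.70, -0.53, 0.39, -0.38 and -0.28 in these 5 libraries in turn. Nlrc5, the longest with 8493 bases, deviated by -0.45, 0.63, -0.50, 0.11 and 0.013. In all 5, B2m lay on the other side of its group mean from Nlrc5. Members of like exon length differed from each other. Within groups Psmb8 and Psmb9 (3381 and 3660 bases) correlated with B2m at r = 0.68 each. Tap2 and Tapbp (3781 and 3628 bases) did so at r = -0.76 and -0.63. The length offset was applied to comparisons between groups only, and the part of the length trend in this spread within groups was not tested.

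**Figure D3:**
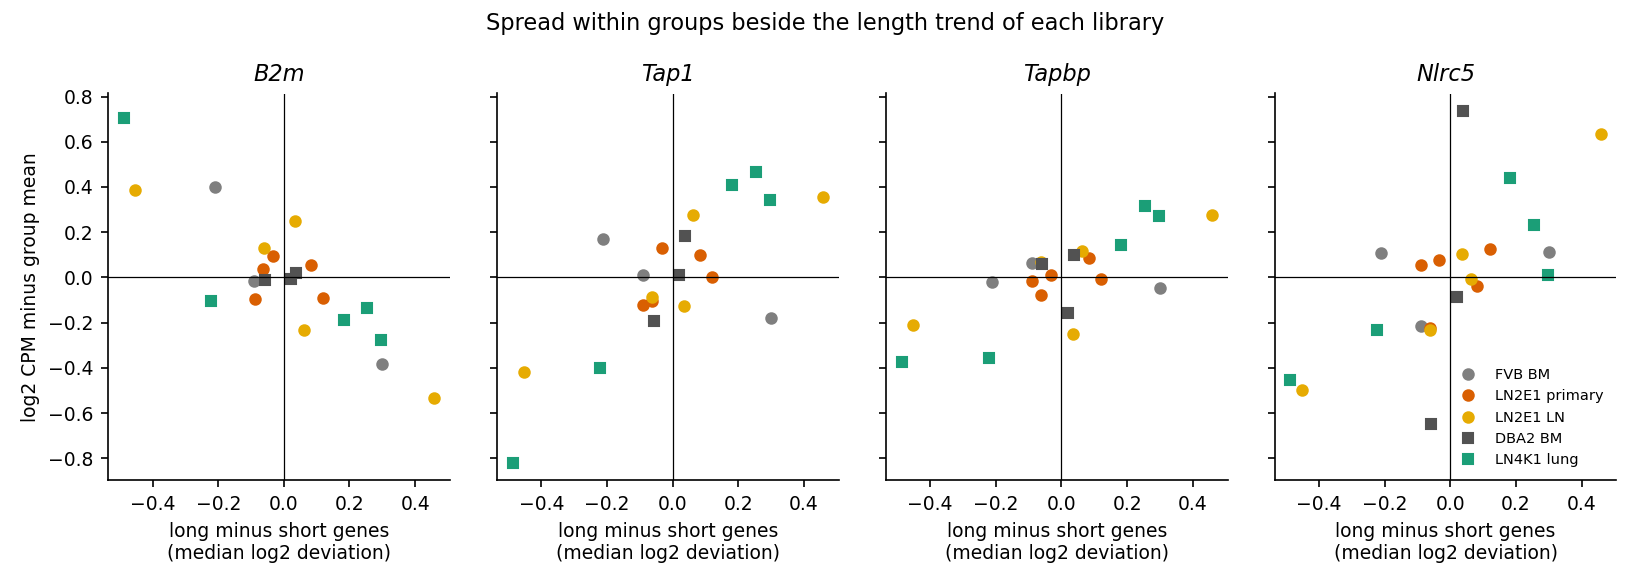
Deviation of B2m, Tap1, Tapbp and Nlrc5 from their group mean (log2 CPM, vertical axis) in the 21 libraries, against the median deviation of genes with over 5000 bases of exon minus that of genes with under 1500 bases in the same library (horizontal axis). Points are libraries by group; LN4K1 lung replicate 3 (-0.49) and lymph node replicate 1 (-0.45) lie far left, with B2m above and Nlrc5 and Tap1 below their group means.

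An interaction term then set the TIM-to-BM difference of LN2E1 primary tumors against that of LN4K1 lung tumors. The change was larger in the LN2E1 model for 4 of 10 members, Nlrc5, Tap1, Tapbp and Tap2, where 13.2% of 15182 genes tested had a larger value and 26.5% differed in either direction. The difference was 3.00 for Nlrc5 (SE 0.37, adjusted p = 1.2e-04 with edgeR), 1.67 for Tap1 (SE 0.34), 1.11 for Tapbp (SE 0.22) and 0.99 for Tap2 (SE 0.31, adjusted p = 0.0303 with edgeR), all on the log2 scale.

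Heavy chains, light chain and immunoproteasome were not called. H2-K1 had a difference of -0.034 (SE 0.18), H2-D1 0.023 (SE 0.17), H2-T23 0.33 (SE 0.17), B2m -0.19 (SE 0.27), Psmb8 -0.29 (SE 0.19) and Psmb9 0.030 (SE 0.17). The signs of the H2-K1, H2-D1 and Psmb9 values turned with the scaling or the filter. Of the 4 calls, Nlrc5, Tap1 and Tapbp held whichever library was left out, and Tap2 was lost without FVB BM replicate 1 or 2 or any DBA2 BM replicate (adjusted p from 0.0528 to 0.0768). Without FVB BM replicate 3, Psmb8 had a difference of -0.46 and was called lower (adjusted p = 0.0443). With the length offset B2m had a difference of 0.62 (adjusted p = 0.0158) and H2-T23 0.54 (adjusted p = 0.0324), and both were then called, while Nlrc5 stayed at 2.68. Long genes had a median difference of 0.29 and short genes of -0.72 in this contrast.

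**Figure D4:**
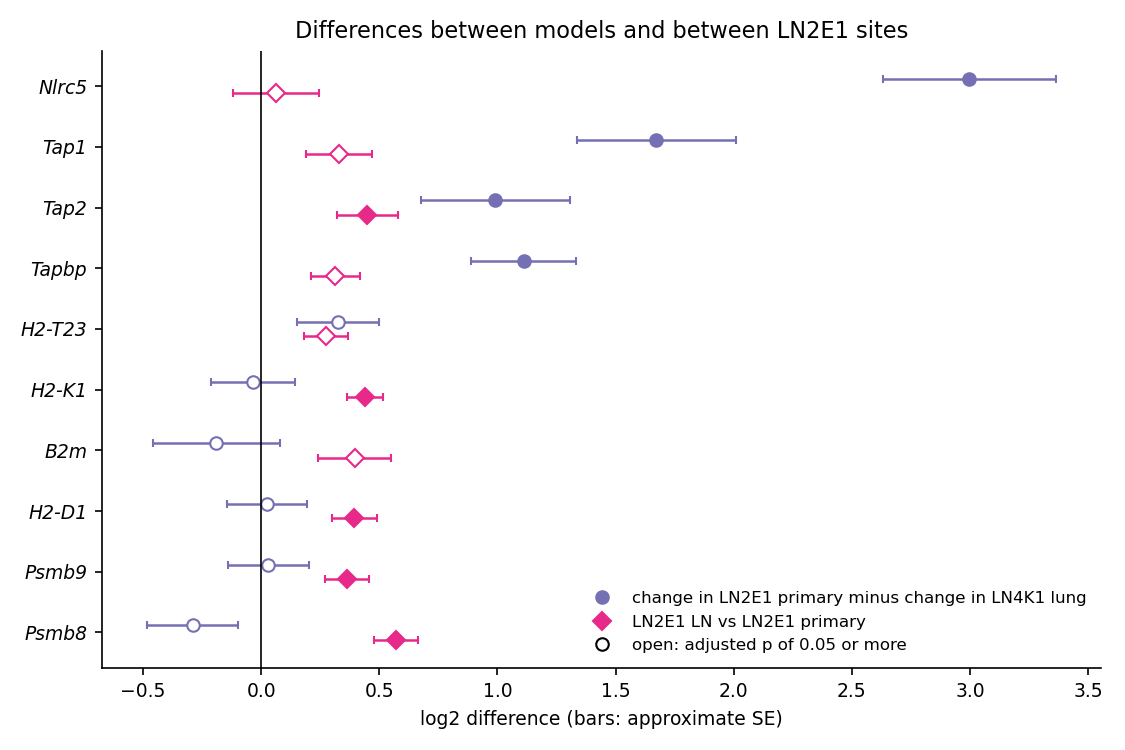
log2 differences of the 10 members with bars of 1 approximate standard error, for the change in LN2E1 primary tumors minus that in LN4K1 lung tumors (circles) and for lymph node against primary tumor TIMs (diamonds). Filled symbols passed an adjusted p of 0.05; Nlrc5, Tap1, Tap2 and Tapbp do so for the first, and Psmb8, H2-K1, H2-D1, Tap2 and Psmb9 for the second.

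BM IMs of the strains differed in 6 of 10 members, 5 higher and 1 lower in DBA2, where 11.5% of 12905 genes tested were higher and 9.57% lower. H2-T23 was 5.09-fold higher in DBA2 (log2 fold change 2.35, SE 0.14, adjusted p = 5.0e-05 with edgeR). Its 3 DBA2 BM IM libraries, at 451 CPM or more, lay above every TIM library of the FVB mice, of which the highest was at 306 CPM. Haplotype effects on alignment and on expression cannot be told apart here.

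Nlrc5 was 3.86-fold higher in DBA2 BM IMs (log2 fold change 1.95, SE 0.33, adjusted p = 0.00619 with edgeR), and the cause was not tested. Tap1 was 1.64-fold higher, H2-K1 1.57-fold and Tapbp 1.39-fold, and H2-D1 fell by 0.49 on the log2 scale (SE 0.13, adjusted p = 0.0340 with edgeR). B2m, Tap2, Psmb8 and Psmb9 had log2 differences between -0.18 and 0.25 and did not pass. The calls for H2-D1 and H2-K1 were lost without any 1 of 5 and any 1 of 4 of the 6 libraries, and that for Tapbp without DBA2 BM replicate 2 or FVB BM replicate 2. In 1 fit of all 5 groups Tap1 and Tapbp were not called (adjusted p = 0.0947 and 0.0946 with edgeR). The starting level and the change ran in opposite order for Nlrc5. DBA2 BM IMs started higher, at 24.3 ± 11.9 CPM against 6.40 ± 0.802 CPM (n = 3 each), and LN4K1 lung TIMs ended lower, at 64.0 ± 15.6 CPM against 129 ± 11.8 CPM in primary tumor TIMs (n = 5 each).

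The immunoproteasome forms when Psmb8, Psmb9 and Psmb10 take the places of Psmb5, Psmb6 and Psmb7. The ratio of each such pair was taken within a library, where it does not depend on library scaling. It can still move with the length trend, because exon lengths differ within a pair. Psmb8 and Psmb9 (3381 and 3660 bases) are longer than Psmb5 and Psmb6 (899 and 1872), and Psmb10 (1705) is shorter than Psmb7 (3421). The value is a ratio of counts and is not divided by gene length. It is therefore compared between libraries only, and neither its size nor a value of 1 says which subunit was more abundant. Psmb8 over Psmb5 was at 7.46, 6.18 and 5.57 in FVB BM IMs and at 13.2, 11.7, 9.74, 11.7 and 11.4 in primary tumor TIMs. It was at 14.1, 15.8, 11.7, 18.9 and 15.5 in lymph node TIMs, above every FVB BM IM library. In the DBA2 mice it was at 7.67, 7.86 and 8.35 in BM IMs and at 12.8, 12.4, 13.5, 13.0 and 9.47 in LN4K1 lung TIMs.

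The log2 ratio of Psmb8 over Psmb5 was higher than in BM IMs by 0.85, 1.24 and 0.61 in the 3 TIM groups, and that of Psmb9 over Psmb6 by 1.03, 1.16 and 0.51 (each p = 0.0179 in a two-sided exact permutation test with n = 5 and n = 3, the smallest these 56 splits can give, and 0.0268 after Benjamini-Hochberg adjustment over the 12 ratio comparisons). Psmb10 over Psmb7 was higher in LN4K1 lung TIMs, by 0.45 (exact permutation p = 0.0179, adjusted p = 0.0268). In primary tumor TIMs it differed by 0.088 and in lymph node TIMs by 0.48 (exact permutation p = 0.0714), with libraries that overlapped those of BM IMs, and neither passed. Without lymph node replicate 3 the latter was 0.58 (exact permutation p = 0.0286). In LN4K1 lung TIMs each of the 3 ratios missed the threshold without any 1 of 4 of the 5 TIM libraries (exact permutation p = 0.0571).

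The ratio of Psmb8 over Psmb5 was also higher in lymph node than in primary tumor TIMs, by 0.39 (exact permutation p = 0.0159, adjusted p = 0.0268), as was Psmb10 over Psmb7, by 0.39 (exact permutation p = 0.0238, adjusted p = 0.0317), and Psmb9 over Psmb6 differed by 0.13 (exact permutation p = 0.262). Both sides of the ratio moved in primary tumor TIMs. Psmb5 fell by 0.33 and Psmb6 by 0.34 on the log2 scale (adjusted p = 0.0244 and 0.0138 with edgeR). A list of 16 proteasome genes held Psmb5, Psmb6, Psmb7 and genes that the inducible subunits do not replace. It therefore does not measure the constitutive form alone. Of the 16, 12 were lower and none higher in primary tumor TIMs, where 28.6% of all genes were lower. In lymph node TIMs 1 of the 16 was lower, where 17.2% of all genes were, and in LN4K1 lung TIMs none was called in either direction, where 13.9% of all genes were higher and 11% lower. Over the 16 the median log2 fold change was -0.37, -0.12 and 0.20 in primary tumor, lymph node and LN4K1 lung TIMs. Psmb5 has 899 bases of exon. Genes with fewer than 1500 had a median of -0.60 in primary tumor, -0.35 in lymph node and 0.16 in LN4K1 lung TIMs. The part of the length trend in the ratios, in the change of Psmb5 and in the changes of the list was not tested.

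**Figure D5:**
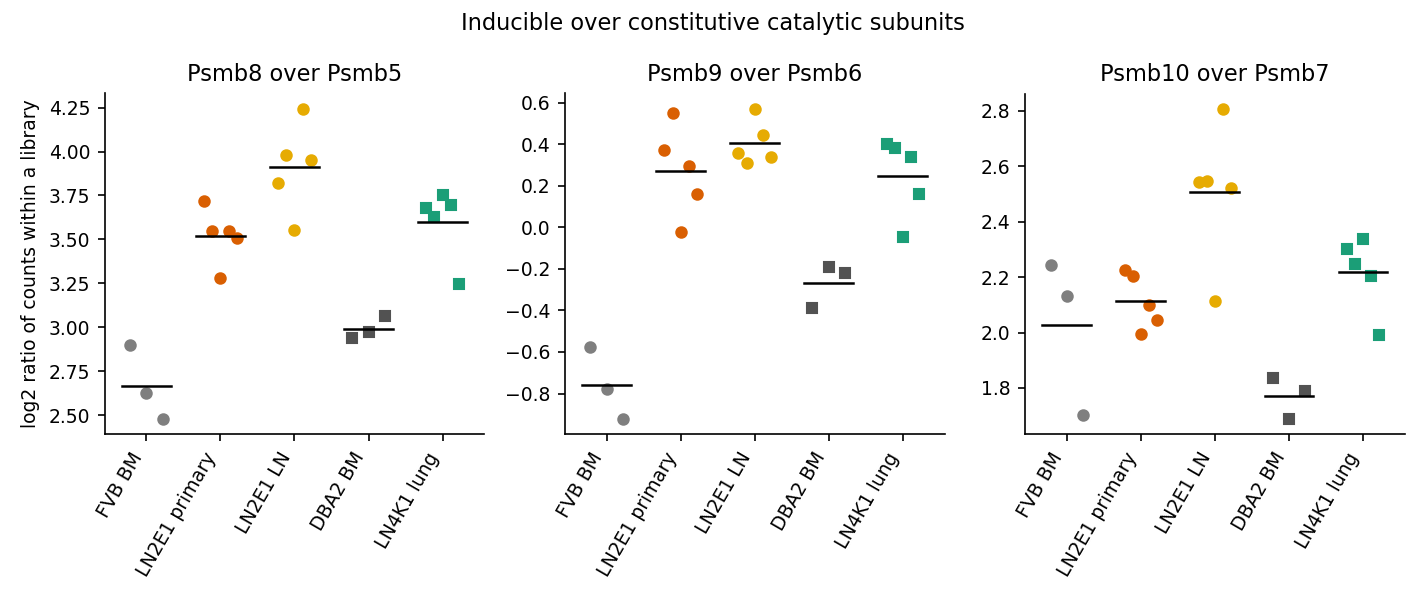
log2 ratio of the counts, not divided by gene length, of an inducible catalytic subunit to those of the constitutive subunit it replaces, within each of the 21 libraries. Points are libraries and bars group means; for Psmb8 over Psmb5 and Psmb9 over Psmb6 each TIM library lies above all BM IM libraries of its strain, and for Psmb10 over Psmb7 the FVB groups overlap.

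Most further class I heavy chain genes that could be tested were higher in TIMs. The shares of all genes tested were 33.3% higher and 28.6% lower in primary tumor TIMs, 20.2% and 17.2% in lymph node TIMs, and 13.9% and 11% in LN4K1 lung TIMs, and these and the medians of all genes given above (0.080, -0.041 and 0.029) are the background for the counts of this and the next lists. Of 19 heavy chain genes tested in primary tumor TIMs, 13 were higher and 2 lower, with a median log2 fold change of 0.87. Of 19 tested in lymph node TIMs 13 were higher and 1 lower (median 1.14), and of 20 tested in LN4K1 lung TIMs 14 were higher and none lower (median 0.84). Hfe, a class I-like regulator of iron uptake, had log2 fold changes of 1.75, 2.39 and 1.74 in primary tumor, lymph node and LN4K1 lung TIMs, and all passed (SE 0.15, 0.24 and 0.12). Mr1, which presents vitamin metabolites to MAIT cells, rose by 1.35, 1.57 and 0.71 in the same order (SE 0.18, 0.27 and 0.18). Genes of the Q and T regions share sequence with each other, and their single values are uncertain.

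In the regulators of class I genes, 13 of 20 were higher and 4 lower in primary tumor TIMs, 10 higher and 3 lower in lymph node TIMs, and 5 higher and 2 lower in LN4K1 lung TIMs. The medians were 0.54, 0.53 and 0.14. Against 33.3%, 20.2% and 13.9% of all genes higher and 28.6%, 17.2% and 11% lower, the counts of lower regulators were at or below the background in the 3 groups, and the 5 of 20 higher in LN4K1 lung TIMs lay not far above it. Irf1, the interferon-induced factor of the class I interferon element, rose from between 88.9 and 170 CPM in FVB BM IMs to between 875 and 1121 CPM in primary tumor TIMs (log2 fold change 2.87, SE 0.20). It rose by 3.60 (SE 0.21) in lymph node TIMs and by 1.86 (SE 0.16) in LN4K1 lung TIMs. Ciita, the class II transactivator and the relative of Nlrc5, rose by 4.62, 4.16 and 3.72 (SE 0.40, 0.38 and 0.39). The difference between the models for Ciita was not called (0.91, SE 0.50, adjusted p = 0.191 with edgeR).

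By the log2 difference between the models, Irf1 (1.03, SE 0.24), Irf7 (2.34, SE 0.31) and Stat2 (1.91, SE 0.33) were among the 9 regulators of 20 with a larger change in the LN2E1 model, where 13.2% of all genes had one, and 1 of the 20 had a smaller one, against 13.3% of all genes. Rfx5, the DNA-binding partner that Nlrc5 needs, had log2 fold changes of 0.68 (SE 0.26, adjusted p = 0.0439), 0.45 (SE 0.44, adjusted p = 0.467) and -0.69 (SE 0.31, adjusted p = 0.141) in primary tumor, lymph node and LN4K1 lung TIMs, and the first passed.

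Among interferon receptors and signaling genes, 9 of 11 tested were higher in primary tumor TIMs and 9 of 11 in lymph node TIMs, with none lower. Of all genes 33.3% and 20.2% were higher there. In LN4K1 lung TIMs 4 of 12 were higher and 1 lower, against 13.9% and 11% of all genes. The medians were 1.25, 1.31 and 0.34. Socs1, the feedback inhibitor of JAK kinases, had log2 fold changes of 4.37, 5.38 and 2.96 (SE 0.18, 0.23 and 0.16).

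For peptide loading and trimming genes, 11 of 16 were higher and 1 lower in primary tumor TIMs, 8 higher and none lower in lymph node TIMs, and 3 higher and 1 lower in LN4K1 lung TIMs. The medians were 0.67, 0.54 and 0.033, and 3 of 16 in LN4K1 lung TIMs is near the 13.9% of all genes that were higher. Tapbpl (TAPBPR), a peptide editor related to tapasin, rose by 1.36 and 1.66 in the LN2E1 groups (SE 0.14 and 0.22), and its log2 fold change of 0.73 in LN4K1 lung TIMs (SE 0.27, adjusted p = 0.0759 with edgeR) did not pass. Calr, the chaperone of the loading complex, rose by 1.45 (SE 0.14) in primary tumor TIMs, and its value of 0.48 in LN4K1 lung TIMs (SE 0.17, adjusted p = 0.0686 with edgeR) did not pass. Of myeloid receptors that bind class I molecules or belong to their families, 7 of 9 tested were higher in each LN2E1 group and 6 of 9 in LN4K1 lung TIMs, and 1 was lower, in lymph node TIMs, with medians of 1.44, 1.28 and 1.13. Lilrb4, an inhibitory receptor, rose by 1.44, 1.28 and 1.30 (SE 0.14, 0.16 and 0.15).

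The genes whose levels ran most like the mean standardised log2 CPM of the 10 members over the 21 libraries, among 8006 genes with a mean above 3, were Gbp3 (Pearson r = 0.985), Fam26f (r = 0.985), Ifi47 (r = 0.983), Trex1 (r = 0.983) and Tgtp2 (r = 0.978). Gbp3, Ifi47 and Tgtp2 encode interferon-inducible GTPases, and Trex1 a DNA exonuclease. These values describe 21 libraries in 5 groups that share library scaling and differ mostly between groups, and they carry no test.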

How the data were processed

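The deposited table held raw read counts for 23420 gene symbols in 21 libraries. Per the labels and the study's methods, libraries were not stranded (SMART amplification and Nextera XT), and adapters were removed (BBDuk) before alignment to mm10 (BBMap, SAMtools 1.8) and counting per gene by the authors (featureCounts 1.5.2). Library totals lay between 80772922 and 101043568 counts. A count of 0 allows up to 3 counts, for counting error only. No column was without a sample.

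Counts were tested in R 4.3.3 with edgeR 4.0.16 (TMM scaling, default filter on low counts with a minimum count of 10, robust quasi-likelihood test), each of 6 comparisons on its own libraries, with Benjamini-Hochberg adjustment over all genes tested. The SE is the log2 fold change divided by the square root of F, which is approximate. CPM used TMM factors over all libraries, and log2 CPM a prior count of 2. Ratios added 0.5 to each count. Gene models came from GENCODE vM21. Scripts were tested on simulated data.

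Alternatives were DESeq2 size factors in edgeR, other filters, 1 fit of all 5 groups, the replicate number as a block, DESeq2 1.42.0, each library left out and, added after seeing the data, the length offset. All 10 members were named. From each pathway list up to 4 genes per comparison could be named, those with the largest change among called genes with a mean log2 CPM above 3, and a gene named for 1 comparison was then described in others. The members and lists were chosen with earlier results of these data known, and so support no direction by themselves. The values of 1 regulator and 1 promoter motif are not reported here.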

Additional observations from a re-analysis of the deposited data

Results flagged for a closer look

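There were 4 measurements that came from a library far from the other 4 of its group, all in LN4K1 lung TIMs. Replicate 1 was high in H2-K1, at 12.11 log2 CPM against values between 11.92 and 11.95 in the others. Replicate 3 was high in B2m, at 12.57 log2 CPM against 11.58 to 11.76, and in Psmb8, at 10.13 log2 CPM against 9.69 to 9.78. Replicate 5 was low in the log2 ratio of Psmb8 over Psmb5, at 3.24 against 3.63 to 3.75. Of 39 groups of values examined in this way 4 stood out, and chance marks about 1 in 20.

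The change from BM IMs to TIMs differed between LN2E1 primary tumors and LN4K1 lung tumors by the interaction test for Nlrc5 (3.00 on the log2 scale), Tap1 (1.67), Tapbp (1.11) and Tap2 (0.99). Strain, cell line, route and tissue cannot be told apart in these differences.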

How the results depend on the processing

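All 10 members stayed called in lymph node TIMs against FVB BM IMs under every alternative, and in primary tumor TIMs under every one except without FVB BM replicate 2 (range 9 to 10). In LN4K1 lung TIMs, 3 to 9 members were called in place of 8, 5 to 9 with single libraries left out. Between lymph node and primary tumor TIMs the number was 3 with 10 counts asked in every library, 3 with the length offset, and 2 to 7 with single libraries left out. Between BM IMs of the strains it was 4 in 1 fit of all 5 groups and 3 to 6 with single libraries left out. In the interaction it was 3 to 5, or 6 with the length offset.

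With the replicate number as a block, 3 members were called in LN4K1 lung TIMs and 1 between lymph node and primary tumor TIMs. The labels do not say whether libraries with the same number came from the same mouse. Correlations of deviations between same-numbered libraries ran from -0.311 to 0.236, not all above 0.1. They cannot decide the question, because the deviations also moved with gene length. Not every library correlated best with its own number. Over all genes the block moved the number of calls from 9025 to 5954 in primary tumor TIMs, from 3389 to 1324 in LN4K1 lung TIMs and from 1578 to 533 between lymph node and primary tumor TIMs, and no member was a DEG under it. DESeq2 called 3074 genes in place of 1578 there, and 1 fit of all groups called 1595 in place of 2719 between the strains. With 5 pairs by number, the ratios of Psmb8 over Psmb5 and Psmb10 over Psmb7 between lymph node and primary tumor TIMs, at 0.39 each, had p = 0.0625 by exact sign flips, a permutation test, the smallest that 5 pairs allow.

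Values near 0 changed sign. Between the models these were H2-K1 (0.0093 with DESeq2 size factors, 0.0095 with DESeq2 unshrunken, 0.0080 shrunken and 0.17 with the length offset), H2-D1 (-0.041 with no filter and -0.042 in 1 fit of all groups), Psmb9 (-0.037 and -0.039) and B2m (0.62 with the length offset). With single libraries left out H2-K1 ranged from -0.18 to 0.12, H2-D1 from -0.092 to 0.11, Psmb9 from -0.13 to 0.13 and B2m from -0.35 to 0.022. Between the strains B2m was at 0.17 with the length offset and from -0.25 to 0.12 with libraries left out, and Psmb8 from -0.23 to 0.15. Nlrc5 between lymph node and primary tumor TIMs ranged from -0.13 to 0.18. The cause was not tested.

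Of the ratios with single libraries left out, Psmb8 over Psmb5 in LN4K1 lung TIMs ranged from 0.57 to 0.70, Psmb9 over Psmb6 from 0.45 to 0.59 and Psmb10 over Psmb7 from 0.41 to 0.50. Each missed the threshold without any 1 of 4 of the 5 TIM libraries (exact permutation p = 0.0571). Psmb10 over Psmb7 ranged from -0.074 to 0.20 in primary tumor TIMs and from 0.32 to 0.59 in lymph node TIMs.

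No scaling moved the median of all genes by over 0.1. With 3 BM IM libraries per strain the permutation tests cannot go below 0.0179, and counts of members rest on few controls.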
